A study of Homo sapiens with 24 samples.

Results

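The nuclear lamina and the inner nuclear membrane were described here through 10 genes, chosen by name: LMNB1, LMNB2, LMNA, LBR, EMD, TMPO, LEMD2, LEMD3, BANF1 and SUN1. Each symbol matched 1 of the 60675 Ensembl genes in the count tables, and all 10 passed the filter on low counts in every comparison. RNA was sequenced from ACHN cells, a human renal cancer line, and from HK2 cells (HK-2), an immortalised line of human proximal tubular epithelium, in 8 groups of 3 replicates, 24 libraries in all. In each line the groups were a control hairpin (shCtrl, labelled shNC), a hairpin against KDM5C (shKDM5C), a hairpin against YY1 (shYY1) and both together (double knockdown, labelled Dsh). All 8 groups carried lentiviral pLKO.1 hairpins with puromycin selection and grew in medium with serum. In the double knockdown, a GFP-marked KDM5C hairpin was added to cells already depleted of YY1, so this group was also selected for green fluorescence, a step that cannot be told apart from the knockdown. Which of 2 hairpins per gene was sequenced is not given in the sources used here. The labels do not say whether the replicates came from separate cultures, so p-values measure only the spread between these samples.

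The nuclear lamina is a meshwork of A-type lamins (lamins A and C, from LMNA) and B-type lamins (from LMNB1 and LMNB2) beneath the inner nuclear membrane. It gives the nucleus its stiffness and anchors condensed chromatin. LBR, emerin, the LAP2 proteins, LEMD2 and MAN1 sit at or beside that membrane, and those with a LEM domain bind the small DNA-bridging protein BAF. SUN1 links the lamina to the cytoskeleton across the perinuclear space. KDM5C is a histone lysine demethylase encoded on the X chromosome, and YY1 is a zinc finger transcription factor that activates some genes and represses others. Which of these envelope genes changed in transcript level with 1 factor or with both depleted is the question of each comparison below.

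The targeted transcripts were examined first. KDM5C was 71.2, 71.0 and 70.2 CPM (counts scaled to library size with edgeR's TMM factors over all 24 libraries) in ACHN shCtrl, 42.1, 44.6 and 42.4 CPM in shKDM5C and 40.0, 41.3 and 40.5 CPM in the double knockdown. In HK2 it was 189.6, 188 and 194 CPM in shCtrl, 34.1, 67.5 and 67.1 CPM in shKDM5C and 67.6, 65.6 and 71.3 CPM in the double knockdown. YY1 was 139 ± 3.90 CPM (SD, n = 3) in ACHN shCtrl, 76.8 ± 3.57 in shYY1 and 97.0 ± 7.07 in the double knockdown, so less of it was lost with both hairpins than with 1 (difference 0.35 ± 0.0575, adjusted p = 5.36e-05, edgeR). In HK2 the same groups had 208 ± 6.38, 63.9 ± 2.81 and 74.2 ± 1.78 CPM (SD, n = 3). Every target was lower than in shCtrl in all 3 libraries of its knockdown groups. The other target also moved. KDM5C rose to 90.7 ± 2.67 CPM (SD, n = 3) in ACHN shYY1 (0.34 ± 0.0399, adjusted p = 1.14e-08, edgeR). In HK2 shYY1 it was 259, 240 and 231 CPM, above every shCtrl library. YY1 in shKDM5C overlapped shCtrl in ACHN (146 ± 5.78 CPM) and lay above it in HK2 (250, 214 and 227 CPM). The part of these shifts in the results below was not tested.

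Library totals were 17910371 to 24272298 counts in ACHN and 15926561 to 18755684 in HK2. Replicates of a group differed by more than sampling noise in every pair, and none was a repeat of another. HK2 shKDM5C replicate 1 stood apart from its group. Over 9006 genes with at least 10 CPM on average in each line, the SD of its log2 difference from the other 2 replicates was 0.707, against 0.0926 to 0.153 in the other 7 groups. Its difference from them also rose with exon length (Spearman's rho 0.415 across genes, which are not independent replicates). In the other 7 groups this rho ran from -0.344 to 0.353, both ends in the ACHN double knockdown, where no call of the 10 genes against shCtrl was lost without any 1 library. HK2 shKDM5C calls and fold changes are therefore given with and without this library, and the part that this library's state plays in them was not tested beyond that. All 9 renal epithelial markers listed were at 1 CPM or more on average over the libraries of each line, and 8 of 9 in HK2 shYY1 and in the HK2 double knockdown taken alone. Their summed level moved with the groups, from 3274 to 3333 CPM in ACHN shCtrl to 2296 to 2499 in the double knockdown, with 3749 to 3979 in the single knockdowns, and in HK2 from 3085 to 3194 in shCtrl to 2493 to 3232 in shKDM5C, 2278 to 2411 in shYY1 and 1744 to 1848 with both. The part of this in the results below was not tested. Leukocyte and endothelial markers each summed to at most 1.78 CPM in any library. Of 3 fibroblast markers, COL3A1 and PDGFRA were under 1 CPM, and COL1A1 carried the sum, which was 555 to 605 CPM in ACHN shCtrl and 48.3 to 53.0 in shKDM5C, 156 to 162 in shYY1 and 128 to 144 in the double knockdown. The part of COL1A1-expressing cells in the results below was not tested, and in bulk RNA fewer cells of a type and less RNA per cell cannot be told apart.

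Before knockdown the lines differed in all 10 genes. With counts divided by exon length (CPM per kilobase), LMNA was the highest of the 10 in ACHN shCtrl at 88.3 ± 2.63 (SD, n = 3), followed by LMNB2 at 77.5 ± 0.495 and BANF1 at 65.1 ± 1.75. TMPO at 41.1 ± 0.731 and LBR at 39.7 ± 0.624 came next without overlap of their replicates, then LMNB1 at 36.2 ± 0.830, EMD at 32.3 ± 0.939 and SUN1 at 20.1 ± 0.631. LEMD2 and LEMD3, at 7.89 ± 0.385 and 7.15 ± 0.502 CPM per kilobase, were the lowest, and their replicates overlapped. Exon length here is that of all annotated exons of a gene together (1645 bases in BANF1, 11811 in SUN1), whichever transcripts were expressed. The order between genes depends on it. HK2 shCtrl had another order. BANF1 led at 84.3 ± 3.33 CPM per kilobase (SD, n = 3), LMNB1 came next at 70.2 ± 0.522, and LMNB2 and TMPO overlapped at 58.3 ± 2.59 and 57.7 ± 2.67. Below them came LMNA at 47.1 ± 1.54, EMD at 36.4 ± 1.44 and LBR at 29.9 ± 0.854. LEMD2 (16.7 ± 0.586), SUN1 (15.9 ± 0.249) and LEMD3 (14.2 ± 0.155) were lowest. In ACHN against HK2 shCtrl, 4 genes were higher (LMNA, LMNB2, LBR and SUN1) and 6 lower at an adjusted p under 0.05 (quasi-likelihood test of edgeR, adjusted over all genes by Benjamini-Hochberg), where 38.6% of 16988 genes tested were called higher and 38.0% lower. The largest differences were LEMD2 (log2 difference -1.09 ± 0.0497, adjusted p = 2.53e-17, edgeR), LEMD3 (-1.0 ± 0.0563), LMNB1 (-0.96 ± 0.0362) and LMNA (0.90 ± 0.0336).

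**Figure D1:**
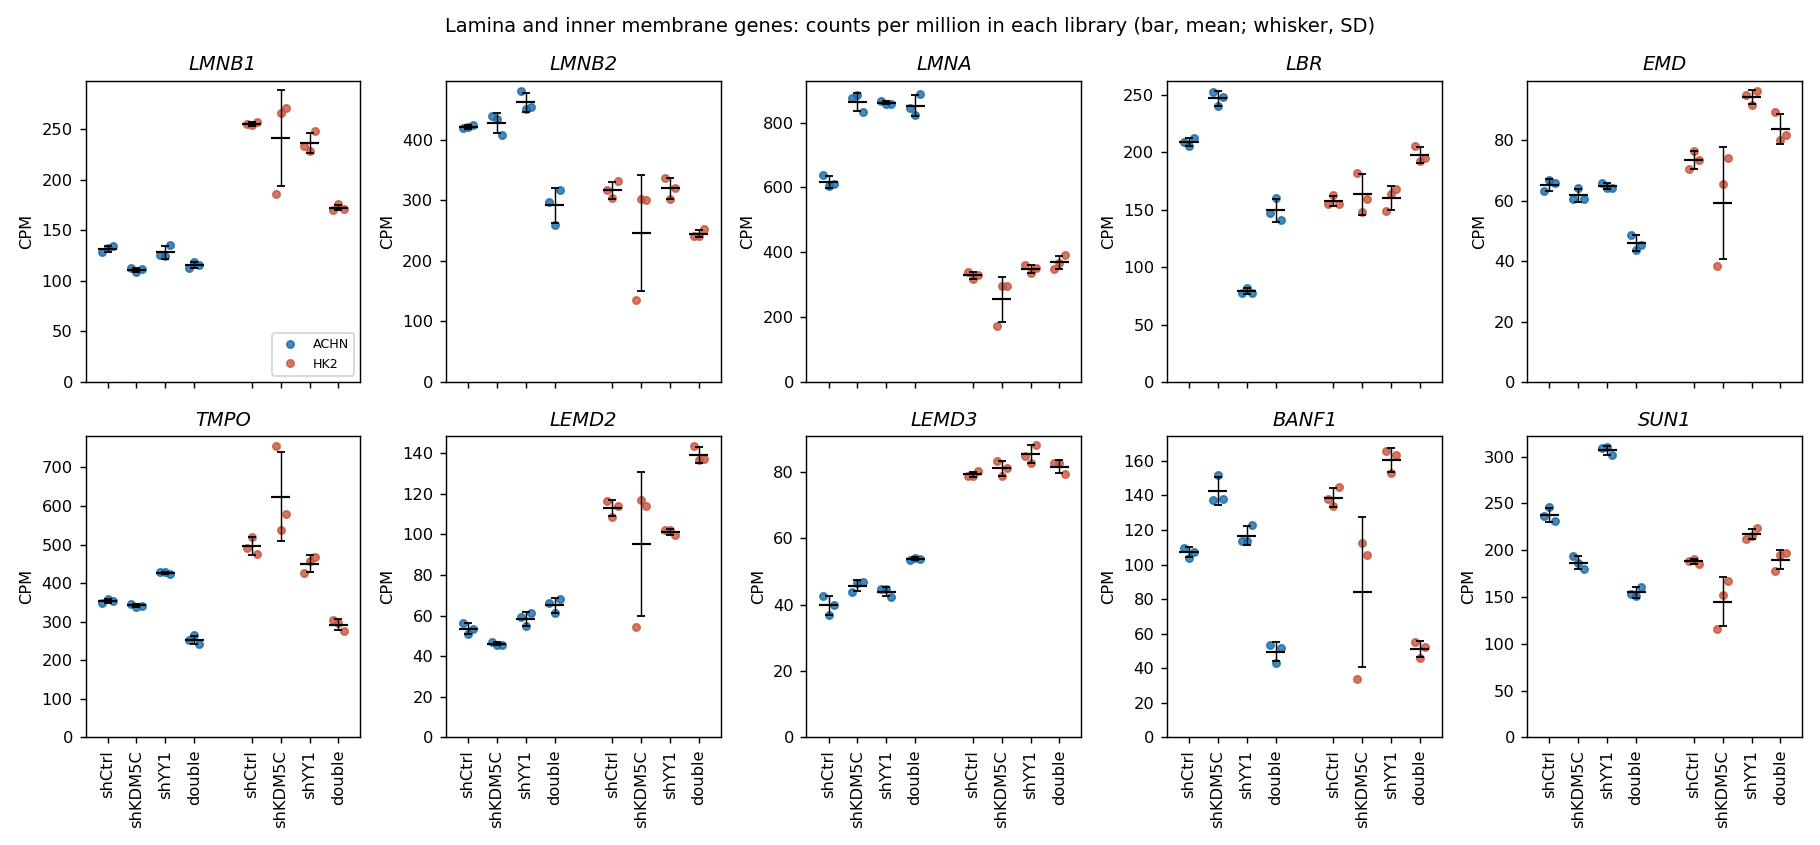
Level of each of the 10 genes in CPM (y axis, from 0) in the 24 libraries, grouped along the x axis by knockdown, with ACHN in blue and HK2 in red. Points are replicates, bars are group means and whiskers are SD. BANF1 lies at or below 55.0 CPM in all 6 double-knockdown libraries, LBR is lowest in ACHN shYY1, and HK2 shKDM5C replicate 1 lies apart in several panels.

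Promoter sequence was read from RefSeq windows of 300 bases on GRCh38.p14, from 250 bases before to 50 after each annotated start. Of the 10 genes, 9 had a window, 13 windows in all. The letters AANATGGC, the core that YY1 binds, were searched on both strands, and 6.58% of all 35116 windows held them. Windows of 3 of these 9 genes held them: LMNB1, LMNB2 and LEMD3. The percentage is a share of windows and the 3 is a count of genes, and the 9 genes had 13 windows. The share and the count are therefore not comparable. Whether these genes held the letters more often than other genes was not tested. The 30 bases around each match are shown because they are the matches to the depleted factor's core, and the capitals mark the match:
LMNB1 (chr5:126777028-126777057, plus strand): ggggcgtgccgGCCATGTTggggagtgcgg
LMNB2 (chr19:2456944-2456973, minus strand): cgcggcgcggcGCCATCTTgcagccggcgg
LEMD3 (chr12:65169583-65169612, plus strand): accctggagagAAAATGGCggcggcagcag
The match lay 97 to 90 bases before the start in LMNB1 and across the start in LMNB2, both on the strand opposite to the gene, and 11 to 18 bases after the start on the gene's strand in LEMD3. LBR and BANF1, which had the largest changes described below, held none of these letters in their windows. The 100 bases before a RefSeq start of each lay within the Ensembl span of the gene given below. With no part in capitals, they were 41% and 47% G or C:
LBR (chr1:225428822-225428921, minus strand): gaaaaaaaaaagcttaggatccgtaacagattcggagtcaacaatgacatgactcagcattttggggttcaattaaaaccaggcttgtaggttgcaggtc
BANF1 (chr11:66002403-66002502, plus strand): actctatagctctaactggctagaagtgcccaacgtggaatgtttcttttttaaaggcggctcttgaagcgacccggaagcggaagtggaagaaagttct
A match is a string of letters and not a measured binding site. All starts here are RefSeq starts, which can differ from the ends of the Ensembl genes counted.

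In ACHN, depletion of KDM5C alone lowered LMNB1, LEMD2 and SUN1 and raised LMNA, LBR, LEMD3 and BANF1. That is 3 of 10 genes lower and 4 higher, where 27.7% of 16184 genes tested were called lower and 28.9% higher. Depletion of YY1 alone lowered LBR and raised LMNB2, LMNA, TMPO, BANF1 and SUN1, 1 lower and 5 higher, against 24.5% and 24.2% of 16370 genes tested. The double knockdown changed all 10. LMNA, LEMD2 and LEMD3 rose and the other 7 fell, where 32.0% of 16454 genes tested were called lower and 30.7% higher. The median log2 fold change of the 10 was -0.028, 0.11 and -0.48 in the 3 comparisons in that order, and that of all genes tested -0.007, -0.0074 and -0.0057. All of these changes were moderate, and none reached the study's fold limit of 1.5 on the log2 scale.

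HK2 cells gave another set of changes. Depletion of YY1 raised EMD, BANF1 and SUN1 and lowered TMPO and LEMD2, 2 of 10 lower and 3 higher, against 14.7% and 14.3% of 16071 genes tested. In the double knockdown LMNB1, LMNB2, TMPO and BANF1 fell and LMNA, LBR, EMD and LEMD2 rose, 4 lower and 4 higher, with 24.3% and 25.5% of 16217 genes tested called lower and higher. The median log2 fold change of the 10 was 0.05 with shYY1 and 0.026 with both, beside 0.0051 and -0.0026 over all genes. For shKDM5C none of the 10 was called in edgeR's test, against 0.656% of 16161 genes tested called lower and 0.668% higher. At an unadjusted p under 0.05 there was 1 (SUN1), and the share of all genes at that threshold is not given here. DESeq2 called none of the 10 either. Without replicate 1, BANF1, SUN1 and LMNA were called lower and TMPO higher, against 10.9% and 11.5% of 16642 genes tested. The log2 fold changes with shKDM5C, first with all libraries and then without replicate 1, were -0.72 and -0.36 in BANF1, -0.35 and -0.25 in SUN1, -0.35 and -0.17 in LMNA and 0.38 and 0.16 in TMPO, all larger with that library. In the genes called neither way they were -0.35 and -0.082 in LMNB2, -0.29 and -0.087 in EMD, -0.23 and 0.021 in LEMD2, -0.059 and 0.061 in LMNB1, 0.094 and -0.044 in LBR and 0.070 and 0.0024 in LEMD3. LEMD2, LMNB1 and LBR thus changed sign with the library. In a fit of all 4 HK2 groups, which takes in the spread of that library, 0 of the 10 were called with shYY1 and 4 with both (LMNB1, TMPO and BANF1 lower, LBR higher). The share of all genes called in that fit is not given here.

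**Figure D2:**
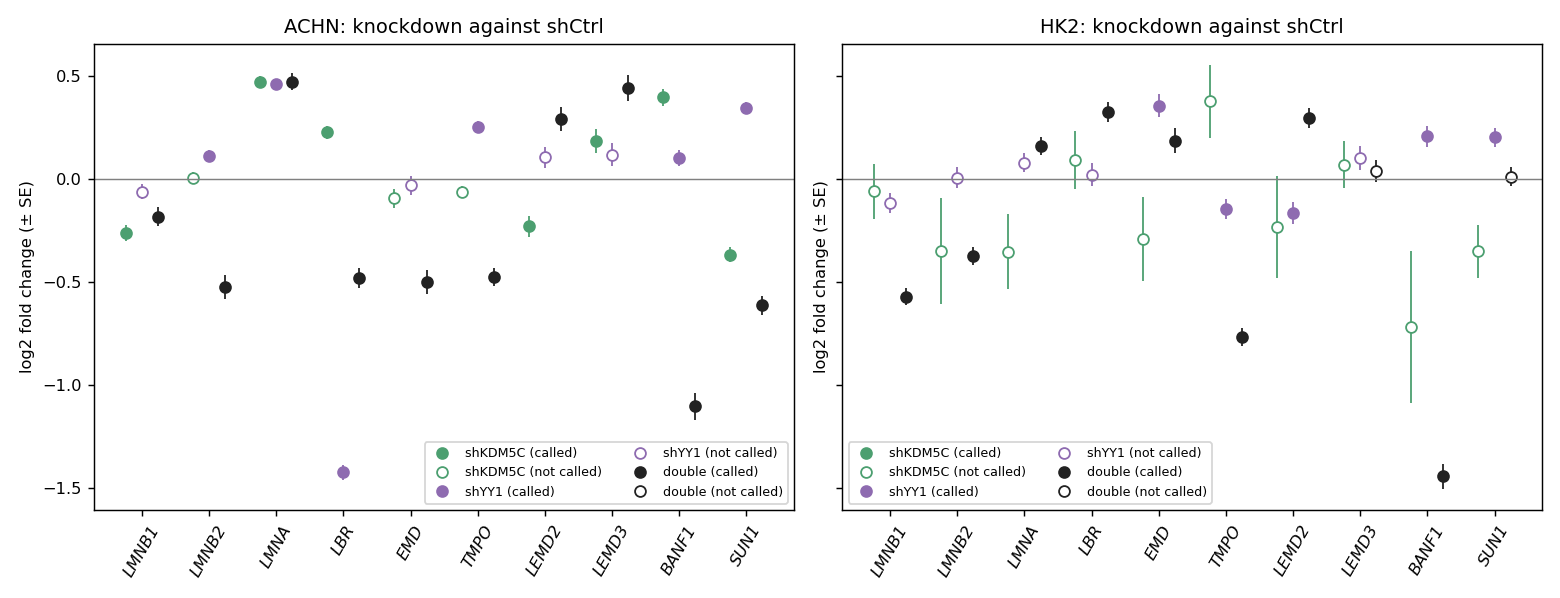
Log2 fold change against shCtrl (y axis) of each of the 10 genes (x axis) in ACHN (left) and HK2 (right), with shKDM5C in green, shYY1 in purple and the double knockdown in black. Whiskers are standard errors, and filled points passed an adjusted p under 0.05. LBR with shYY1 in ACHN (-1.42) and BANF1 with both knockdowns (-1.10 and -1.44) lie farthest from 0, and the long green whiskers in HK2 belong to the group with the replicate that stands apart.

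Among the lamins, LMNB1 (ENSG00000113368, chr5:126776623-126837020) codes for lamin B1, a B-type lamin that stays attached to the membrane by its farnesyl group. The study's text singles out LMNB1 as markedly lower in the ACHN double knockdown on these same samples. It also reports qPCR of LMNB1 in ACHN and YY1 ChIP at the LMNB1 promoter. The direction of LMNB1 in these libraries is therefore not independent evidence. In ACHN it measured 128, 132 and 134 CPM in shCtrl, 113, 109 and 111 in shKDM5C, 125, 124 and 135 in shYY1 and 113, 119 and 115 in the double knockdown. The shKDM5C and double-knockdown libraries all lay below the shCtrl libraries, while shYY1 overlapped them. The log2 fold change was -0.26 ± 0.0371, adjusted p = 1.32e-06 with shKDM5C (± standard error, edgeR, as below), -0.061 ± 0.0368, adjusted p = 0.177 with shYY1 and -0.18 ± 0.0459, adjusted p = 0.00208 with both. Levels in HK2 were 255, 254 and 257 CPM in shCtrl, 186, 266 and 270.3 in shKDM5C, 233, 228 and 248 in shYY1 and 170.2, 175 and 171 in the double knockdown. The double-knockdown libraries were the lowest group, with only shKDM5C replicate 1 near them, and the change against shCtrl was -0.57 ± 0.0434, adjusted p = 1.84e-12 (edgeR). For shYY1 in HK2 it was -0.11 ± 0.0473, adjusted p = 0.0727, which passed the threshold with library totals as the scaling or with the stricter filter on low counts.

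LMNB2 (ENSG00000176619, chr19:2427638-2456996, minus strand), which codes for lamin B2, changed mainly in the double knockdown. In ACHN it was 419, 420.2 and 424 CPM in shCtrl, 439.5, 433 and 408 in shKDM5C, 479, 451 and 454 in shYY1 and 297, 259.8 and 317 with both. The double-knockdown libraries lay below all the others, and shYY1 lay above shCtrl. The fall with both was -0.52 ± 0.0568, adjusted p = 1.98e-07 and the rise with shYY1 0.11 ± 0.0279, adjusted p = 0.00112 (edgeR), while shKDM5C gave 0.0056 ± 0.0301, adjusted p = 0.888. HK2 had 316, 303 and 331 CPM in shCtrl, 136, 302 and 300.4 in shKDM5C, 337, 301 and 319.6 in shYY1 and 241, 242 and 252 with both. Here too the double knockdown was below shCtrl and shYY1 (-0.37 ± 0.0436, adjusted p = 1.76e-08 against shCtrl, edgeR), and shKDM5C replicate 1 was lower still. Exons of LMNB2 share 5.58% of their length with TIMM13 and another gene on the same strand, and pairs in shared bases were not assigned to either gene.

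LMNA (ENSG00000160789, chr1:156082573-156140089) rose to nearly the same level in all 3 ACHN knockdowns. Its values were 638, 603 and 609.9 CPM in shCtrl, 875, 885 and 832 in shKDM5C, 866, 858 and 858 in shYY1 and 846, 823 and 888 with both. Every knockdown library was above every shCtrl library, and the 3 knockdown groups overlapped each other. The log2 fold changes were 0.47 ± 0.0292, adjusted p = 5.25e-13, 0.46 ± 0.0259, adjusted p = 1.3e-16 and 0.47 ± 0.0429, adjusted p = 1.7e-08 (edgeR). Against the single knockdowns the double differed by 0.0045 ± 0.0420 (shKDM5C) and -0.0055 ± 0.0401 (shYY1) on the log2 scale, neither past the threshold. In HK2 the values were 339.8, 318 and 329.8 CPM in shCtrl, 173, 296 and 295 in shKDM5C, 360.2, 336 and 350.4 in shYY1 and 349, 367 and 390.2 with both. LMNA rose in the HK2 double knockdown by 0.16 ± 0.0444, adjusted p = 0.00298 and was 0.079 ± 0.0463, adjusted p = 0.223 with shYY1 (edgeR). Gene-level counts do not separate the transcripts of lamin A from those of lamin C.

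The ratio of LMNA to LMNB1, each as counts per exon length, sets an A-type lamin against a B-type lamin within 1 library and needs no scaling between libraries. Its size depends on the exon lengths used, which are the same for every library. It was 2.58, 2.38 and 2.36 in ACHN shCtrl and 4.04, 4.23 and 3.89 in shKDM5C, 3.60, 3.60 and 3.30 in shYY1 and 3.90, 3.61 and 4.01 in the double knockdown. All 9 knockdown libraries of ACHN had a higher ratio than the 3 shCtrl libraries, by 1.66, 1.43 and 1.57 times between the means. In HK2 it was 0.694, 0.653 and 0.667 in shCtrl, 0.484, 0.578 and 0.567 in shKDM5C, 0.803, 0.765 and 0.736 in shYY1 and 1.07, 1.09 and 1.19 with both. The ratio was above shCtrl in shYY1 (1.14 times) and in the double knockdown (1.66 times) and below it in shKDM5C (0.809 times, and 0.853 times without replicate 1), with no overlap in any of these. In each of these 6 comparisons the exact two-sided permutation test gave p = 0.1, the smallest p that 3 libraries against 3 allow.

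**Figure D3:**
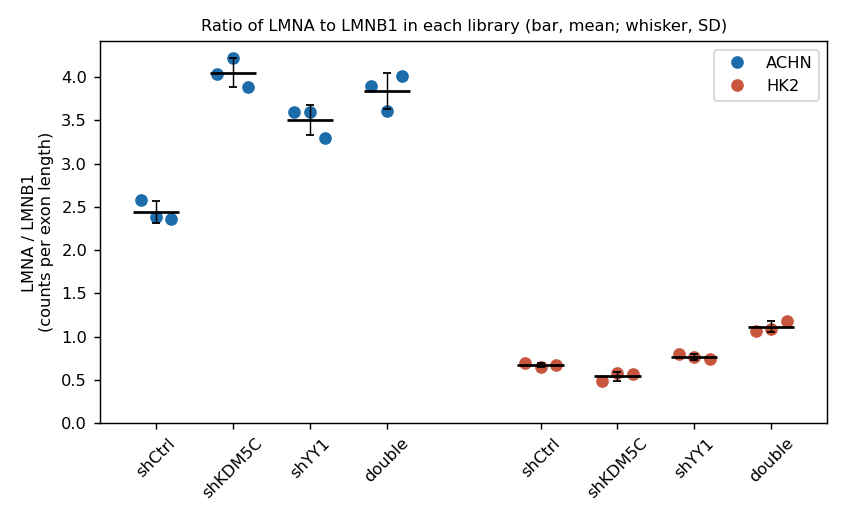
Ratio of LMNA to LMNB1 counts per exon length (y axis, from 0, no unit) in each library, by knockdown group (x axis), with ACHN in blue and HK2 in red. Points are replicates, bars are means and whiskers are SD. Means in ACHN run from 2.44 ± 0.124 in shCtrl to 4.05 ± 0.168 in shKDM5C, and in HK2 from 0.543 ± 0.0516 in shKDM5C to 1.11 ± 0.0624 in the double knockdown.

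LBR (ENSG00000143815, chr1:225401502-225428925, minus strand) codes for the lamin B receptor, a membrane protein that tethers heterochromatin to B-type lamins and also has sterol reductase activity. Its level in ACHN was 209, 206 and 212 CPM in shCtrl, 253, 240.1 and 248 in shKDM5C, 77.6, 82.2 and 77.4 in shYY1 and 147, 159.7 and 141 in the double knockdown. The 4 groups did not overlap one another: shKDM5C was highest, shCtrl next, the double knockdown below it and shYY1 lowest. LBR rose with shKDM5C (0.23 ± 0.0326, adjusted p = 1.71e-06) and fell with shYY1 (-1.42 ± 0.0357, adjusted p = 1.39e-26, edgeR), the largest change of the 10 in either single knockdown in ACHN. With both it fell by less, -0.48 ± 0.0491, adjusted p = 9.11e-08, and was higher than in shYY1 alone (0.92 ± 0.0535, adjusted p = 1.58e-10, edgeR). YY1 itself was higher in the ACHN double knockdown than in shYY1, as given above, and the part of this in the LBR difference was not tested. HK2 gave 155, 162 and 155 CPM in shCtrl, 182, 148 and 159 in shKDM5C, 149, 163 and 168 in shYY1 and 205, 192 and 195 with both. Here shYY1 overlapped shCtrl (0.022 ± 0.0545, adjusted p = 0.812) and the double knockdown lay above every other HK2 library (0.33 ± 0.0465, adjusted p = 6.6e-07 against shCtrl, edgeR).

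Of the genes for LEM domain proteins, EMD (ENSG00000102119, X chromosome, 154379197 to 154381523) codes for emerin, which is lost in X-linked Emery-Dreifuss muscular dystrophy. In ACHN it was 63.1, 66.8 and 65.9 CPM in shCtrl, 60.7, 64.3 and 60.5 in shKDM5C, 65.9, 64.3 and 64.3 in shYY1 and 48.8, 43.6 and 45.4 with both. The single knockdowns overlapped shCtrl, though with library totals as the scaling the shKDM5C value of -0.093 became -0.14 and was called (adjusted p = 0.0131), and the double knockdown lay below all of them (-0.50 ± 0.0592, adjusted p = 6.08e-07 against shCtrl, edgeR). In HK2 it was 70.5, 76.4 and 73.5 CPM in shCtrl, 38.4, 65.4 and 74.0 in shKDM5C, 95.1, 91.7 and 96.2 in shYY1 and 89.5, 80.0 and 81.9 with both. EMD rose in HK2 with shYY1 (0.36 ± 0.0575, adjusted p = 5.37e-05) and with both (0.19 ± 0.0589, adjusted p = 0.00905, edgeR), and the latter call was lost without shCtrl replicate 1 (adjusted p = 0.0564) or without double-knockdown replicate 1 (adjusted p = 0.0836).

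TMPO (ENSG00000120802, chr12:98515512-98550379) codes for the LAP2 proteins, among them forms that bind B-type lamins at the membrane and a form that binds A-type lamins in the nucleoplasm. In ACHN it was 348, 360.0 and 353 CPM in shCtrl, 346, 339 and 341 in shKDM5C, 428, 429 and 424 in shYY1 and 252, 264 and 243 with both. It rose with shYY1 (0.25 ± 0.0273, adjusted p = 1.56e-09) and fell with both (-0.48 ± 0.0448, adjusted p = 2.87e-08, edgeR), and the groups of these 2 comparisons did not overlap. All 3 shKDM5C libraries lay below shCtrl by a small margin (-0.063 ± 0.0298, adjusted p = 0.0763, edgeR), which was called with library totals as the scaling (-0.11, adjusted p = 0.00345). HK2 had 491, 521 and 476 CPM in shCtrl, 755, 538 and 579 in shKDM5C, 425, 457 and 467 in shYY1 and 303, 298 and 276 with both. The double-knockdown libraries were the lowest of HK2 (-0.76 ± 0.0449, adjusted p = 4.04e-15, edgeR), and shKDM5C replicate 1 was the highest. The small fall with shYY1 (-0.14 ± 0.0490, adjusted p = 0.0298) was not called without shCtrl replicate 1 or 2 or shYY1 replicate 1, with adjusted p from 0.0691 to 0.162. TMPO shares 8.30% of its exon length with the antisense gene TMPO-AS1, and strand was not used in the counting.

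LEMD2 (ENSG00000161904, chr6:33771202-33789136, minus strand), whose protein recruits membrane-resealing factors at the end of mitosis, was 56.3, 51.1 and 53.2 CPM in ACHN shCtrl, 47.1, 45.7 and 45.6 in shKDM5C, 59.5, 54.7 and 61.3 in shYY1 and 66.2, 61.1 and 68.2 with both. It fell with shKDM5C (-0.23 ± 0.0516, adjusted p = 0.000483) and rose with both (0.29 ± 0.0598, adjusted p = 0.000318, edgeR), with no overlap in either. In HK2 it was 117, 109 and 114 CPM in shCtrl, 54.3, 117 and 114 in shKDM5C, 102, 102 and 99.6 in shYY1 and 143, 137 and 137 with both. The double knockdown was above every other HK2 library (0.30 ± 0.0494, adjusted p = 8.35e-06), and shYY1 was slightly below shCtrl (-0.16 ± 0.0538, adjusted p = 0.0251, edgeR), a call lost without shCtrl replicate 1 or 3 or shYY1 replicate 3 (adjusted p from 0.0752 to 0.117).

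LEMD3 (ENSG00000174106, chr12:65169571-65248327) codes for MAN1, which restrains signalling by SMAD proteins. ACHN had 42.5, 36.9 and 39.8 CPM in shCtrl, 43.7, 46.6 and 46.7 in shKDM5C, 44.6, 44.7 and 42.3 in shYY1 and 53.3, 54.1 and 53.8 with both. The double-knockdown libraries were the highest of ACHN (0.44 ± 0.0628, adjusted p = 6.16e-06). The rise with shKDM5C was smaller (0.18 ± 0.0586, adjusted p = 0.00926, edgeR) and not called without shCtrl replicate 2 (0.14, adjusted p = 0.0786). In HK2 it was 78.6, 78.8 and 80.2 CPM in shCtrl, 83.3, 78.7 and 81.1 in shKDM5C, 84.9, 82.8 and 88.1 in shYY1 and 82.8, 82.5 and 79.4 with both. The groups lay close together, shKDM5C replicate 1 included, and in edgeR's test no HK2 knockdown passed against shCtrl (log2 fold changes 0.07 ± 0.113, 0.10 ± 0.0564 and 0.04 ± 0.0547 in that order, unadjusted p under 0.05 in 0 of 3).

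BANF1 (ENSG00000175334, chr11:66002079-66004149) codes for BAF, which binds LEM domain proteins, lamins and DNA and draws the envelope together after mitosis. In ACHN it was 109.8, 104 and 107 CPM in shCtrl, 138, 152 and 138 in shKDM5C, 114, 114 and 123 in shYY1 and 53.4, 43.2 and 51.9 in the double knockdown. Every library of both single knockdowns was above every shCtrl library, and the double knockdown was far below, with a fitted fold of 0.466 against shCtrl. BANF1 rose with shKDM5C (0.40 ± 0.0406, adjusted p = 6.42e-09) and with shYY1 (0.10 ± 0.0380, adjusted p = 0.0238) and fell with both (-1.10 ± 0.0654, adjusted p = 4.34e-11, edgeR). The small rise with shYY1 was not called without shCtrl replicate 2 or 3 or shYY1 replicate 3 (adjusted p from 0.0561 to 0.187). Nor was it called with library totals as the scaling (0.087, adjusted p = 0.0549) or with all 4 groups in the fit (0.12, adjusted p = 0.0873, edgeR). In HK2 the values were 138, 134 and 145 CPM in shCtrl, 33.8, 112 and 105 in shKDM5C, 166, 153 and 163 in shYY1 and 55.0, 46.0 and 52.5 with both. It rose with shYY1 (0.21 ± 0.0517, adjusted p = 0.00396) and fell in the double knockdown (-1.44 ± 0.0605, adjusted p = 1.12e-18, edgeR), where all 3 libraries were below the other HK2 libraries except shKDM5C replicate 1. For shKDM5C the change was -0.72 ± 0.369, adjusted p = 0.392 with all libraries and -0.36 ± 0.0527, adjusted p = 1.32e-05 without replicate 1 (edgeR). BANF1 was the gene with the largest double-knockdown change of the 10 in each line. Its pseudogenes together held few counts, and 5.96% of its exon length is shared with EIF1AD on the opposite strand.

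SUN1 (ENSG00000164828, chr7:816615-896435) codes for an inner membrane protein of the LINC complex, which couples lamins to the cytoskeleton. In ACHN it was 237, 246 and 231 CPM in shCtrl, 194, 186 and 179.8 in shKDM5C, 309, 310.4 and 301 in shYY1 and 153, 151 and 161 with both. The 4 groups did not overlap: shYY1 was highest and the double knockdown lowest. SUN1 fell with shKDM5C (-0.37 ± 0.0348, adjusted p = 1.69e-09), rose with shYY1 (0.35 ± 0.0303, adjusted p = 1.22e-11) and fell with both (-0.61 ± 0.0459, adjusted p = 1.21e-09, edgeR). In HK2 it was 188, 191 and 185 CPM in shCtrl, 116, 152 and 167 in shKDM5C, 212, 215 and 223 in shYY1 and 178, 195 and 197 with both. It rose with shYY1 (0.20 ± 0.0478, adjusted p = 0.00255), fell with shKDM5C once replicate 1 was left out (-0.25 ± 0.0485, adjusted p = 0.000433) and was 0.012 ± 0.0473, adjusted p = 0.86 with both (edgeR). SUN1 shares 15.6% of its exon length with GET4 on the same strand and a gene on the opposite strand, so part of its signal was not counted.

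The double knockdown was next set against each single knockdown. In ACHN against shKDM5C, 6 genes were lower and 2 higher, where 30.9% of 16112 genes tested were called lower and 31.6% higher. LMNA (0.0045 ± 0.0420, adjusted p = 0.932, edgeR) and LMNB1 (0.083 ± 0.0467, adjusted p = 0.132) were not called there. Against shYY1, 6 were lower and 3 higher, with 32.7% of 16414 genes tested lower and 32.0% higher. BANF1 was furthest from the single knockdowns in both (-1.50 and -1.23), and SUN1 fell by 0.98 on the log2 scale against shYY1. The smaller differences from shYY1 in LMNB1 and LEMD2 were lost without some single libraries (LMNB1 without shYY1 replicate 3 or double-knockdown replicate 1, adjusted p up to 0.12, and LEMD2 without shYY1 replicate 1 or 2 or double-knockdown replicate 1 or 3, adjusted p up to 0.168). In HK2 against shYY1, 6 were lower and 2 higher, against 22.9% and 24.8% of 15947 genes tested, led by BANF1 (-1.65 ± 0.0652, adjusted p = 1.4e-15, edgeR). Among the comparisons of 2 groups, this was the 1 value past the study's limit of 1.5, and that of ACHN against shKDM5C (-1.496) lay just inside it. The calls of EMD (lower, lost without shYY1 replicate 3 or double-knockdown replicate 2 or 3, adjusted p up to 0.119) and SUN1 (lower, lost without double-knockdown replicate 1, adjusted p = 0.0561) rested on single libraries. With all 4 HK2 groups in the fit, LMNB1, TMPO and BANF1 were called and the other 5 were not (adjusted p from 0.0649 to 0.48). In HK2 against shKDM5C, 1 was lower (TMPO, -1.14 ± 0.178, adjusted p = 0.00884) and none higher, where 5.59% and 6.26% of 16042 genes tested were called lower and higher. That call was lost without any 1 of the double-knockdown libraries (adjusted p from 0.06 to 0.0697). Without shKDM5C replicate 1, 4 were lower (TMPO, BANF1, LMNB1 and LMNB2) and 5 higher (LMNA, LBR, LEMD2, EMD and SUN1), against 21.0% and 22.2% of 16633 genes tested.

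Whether both knockdowns together did more or less than the sum of each alone was tested as an interaction in the 12 libraries of a line, on the log2 scale. In ACHN, 6 genes were below the sum (BANF1, TMPO, LMNB2, SUN1, LMNA and EMD) and 2 above it (LBR and LEMD2), where 28.8% of 17228 genes tested were below and 26.8% above. BANF1 was -1.63 ± 0.0826 from the sum of its single effects, since it rose with each hairpin and fell with both. Its rise with shYY1 was small and not called in some fits, as given above. TMPO (-0.69 ± 0.0509) and LMNB2 (-0.66 ± 0.0703) both rose with shYY1 and fell with both hairpins, and neither was called with shKDM5C. For LMNA the interaction was -0.48 ± 0.0497, close in size to either single effect and opposite in sign. LBR was 0.69 ± 0.0625 above the sum. LMNB1 (0.12 ± 0.0593, adjusted p = 0.0988) and LEMD3 (0.11 ± 0.0817, adjusted p = 0.252) did not pass in edgeR's test, but with library totals as the scaling, under which the median of all genes tested was 0.11, both did (0.21 and 0.21). The targets themselves also departed from the sum in ACHN. KDM5C was -0.42 ± 0.0669 from it, adjusted p = 6.48e-06, and YY1 0.28 ± 0.0689, adjusted p = 0.00125 (edgeR). The part of this in the ACHN values was not tested.

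In HK2, 1 gene was below the sum (TMPO, -1.0 ± 0.188, adjusted p = 0.00542, edgeR) and none above it, where 4.40% and 5.21% of 17093 genes tested were below and above. Without shKDM5C replicate 1, 4 were below (BANF1, TMPO, LMNB1 and LMNB2) and 3 above (LEMD2, LBR and LMNA), against 13.7% and 15.0% of 17642 genes tested. BANF1 was then -1.28 ± 0.0869, adjusted p = 3.21e-12 from the sum (edgeR), LMNB1 -0.51 and LMNA 0.26. The signs of LMNA in the 2 lines were opposite. Without that replicate, KDM5C itself was -0.32 ± 0.0773 from the sum, adjusted p = 0.00244, and YY1 0.15 ± 0.0771, adjusted p = 0.159 (edgeR). The part of this in the HK2 values was not tested.

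**Figure D4:**
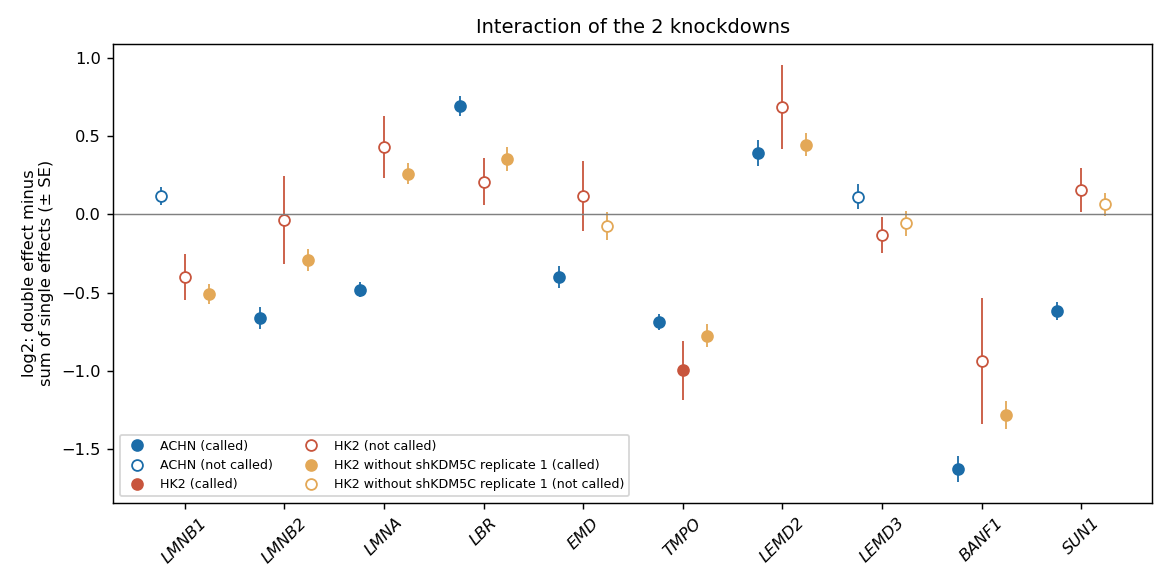
Interaction of the knockdowns (y axis: log2 effect of the double knockdown minus the sum of the single effects) for each of the 10 genes (x axis) in ACHN (blue), HK2 (red) and HK2 without shKDM5C replicate 1 (yellow). Whiskers are standard errors, and filled points passed an adjusted p under 0.05. BANF1 and TMPO lie below 0 in all 3 series, and LMNA lies below 0 in ACHN and above 0 in HK2.

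The effects of a knockdown in the 2 lines were compared by testing their difference, ACHN minus HK2. For shYY1, 2 genes had a lower effect in ACHN (LBR and EMD) and 4 a higher one (TMPO, LMNA, LEMD2 and SUN1), where 16.5% of 18010 genes tested were lower and 16.6% higher. LBR had the largest of these 6 differences, -1.43 ± 0.0649, adjusted p = 1.75e-16 (edgeR), while that of SUN1 (0.16 ± 0.0545, adjusted p = 0.0276) was lost without any 1 of 6 libraries (ACHN shCtrl replicate 1 or 3, ACHN shYY1 replicate 1 or 2, HK2 shCtrl replicate 2 and HK2 shYY1 replicate 1, adjusted p from 0.0549 to 0.0957). For the double knockdown, 3 were lower (LBR, EMD and SUN1) and 5 higher (LMNB1, LEMD3, BANF1, LMNA and TMPO), against 22.7% and 23.3% of 18087 genes tested. LMNB1, TMPO and BANF1 fell in both lines and fell by more in HK2, and LMNA rose by more in ACHN. LBR and EMD fell in ACHN and rose in HK2. For LMNB2 (-0.13 ± 0.0743, adjusted p = 0.159) and LEMD2 (0.016 ± 0.0761, adjusted p = 0.9) edgeR called no difference, but that of LMNB2 was called without a filter on low counts (-0.18, adjusted p = 0.029) and without ACHN double-knockdown replicate 3 (-0.20, adjusted p = 0.0207). For shKDM5C, LMNA alone was called (0.83 ± 0.198, adjusted p = 0.0185, edgeR), 0 lower and 1 higher against 6.18% and 5.74% of 17948 genes tested. It was lost without any 1 of 5 libraries (ACHN shCtrl replicate 2 or 3, ACHN shKDM5C replicate 1 or 2, HK2 shCtrl replicate 1, adjusted p from 0.0504 to 0.0543). Without HK2 shKDM5C replicate 1, LMNA (0.64), BANF1 (0.76) and LBR (0.28) were higher and LMNB1, LEMD2 and TMPO lower, against 15.4% of 18527 genes lower and 18.6% higher. The depletion itself differed in size: YY1 fell by 0.88 on the log2 scale in ACHN shYY1 and by 1.70 in HK2 shYY1, and the part of this in the differences was not tested.

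Other nuclear envelope genes were tallied from a list of 27: the partners of SUN1, other inner membrane and torsin genes, prelamin processing enzymes, BAF regulators and resealing factors, and pore components on the lamina side. Of the 26 tested in each knockdown, 7 were lower and 13 higher with shKDM5C in ACHN (median 0.11), beside 27.7% lower and 28.9% higher over all genes tested. With shYY1 in ACHN 7 were lower and 7 higher (median 0.04), beside 24.5% and 24.2%, and with both 9 and 8 (median -0.04), beside 32.0% and 30.7%. In HK2 the counts were 9 lower and 2 higher with shYY1, beside 14.7% and 14.3% of all genes, and 10 and 5 with both, beside 24.3% and 25.5%. With shKDM5C in HK2 none was called in edgeR's test, beside 0.656% and 0.668% of all genes, and without replicate 1, 2 of 27 were lower and 7 higher, beside 10.9% and 11.5%. These shares are at an adjusted p. At an unadjusted p under 0.05 there were 4 with all libraries, and the share of all genes at that threshold is not given here. In ACHN shYY1, where SUN1 rose, all 4 tested genes of the LINC complex list rose (24.2% of all genes tested did), with SYNE1 (1.12 ± 0.0322, adjusted p = 6.91e-25, edgeR) and SYNE3 (0.61 ± 0.151, adjusted p = 0.00104), which code for nesprins on the outer membrane. SYNE3 fell in ACHN shKDM5C (-1.01 ± 0.197, adjusted p = 9.97e-05) and in the double knockdown (-1.41 ± 0.224, adjusted p = 2.16e-05, edgeR). In HK2 shYY1 3 of the 4 genes of that list tested there fell (14.7% of all genes tested did), among them SYNE1 (-0.48 ± 0.0659, adjusted p = 6.77e-06), and the SYNE1 effects differed between the lines (1.62 ± 0.0700, adjusted p = 6.28e-17, edgeR). The genes tested need not be the same in both lines, as SYNE3 was near the floor in HK2 (0.871 ± 0.585 CPM in shCtrl, SD, n = 3). SUN2, the paralog of SUN1, rose in the HK2 double knockdown (0.55 ± 0.0497, adjusted p = 7.23e-11, edgeR). TOR1A, the torsin ATPase of the perinuclear space, fell in ACHN shYY1 (-0.45 ± 0.0479, adjusted p = 8.22e-10), HK2 shYY1 (-0.43 ± 0.0628, adjusted p = 1.56e-05) and the ACHN double knockdown (-0.56 ± 0.0609, adjusted p = 1.8e-07, edgeR). Of 5 prelamin processing genes, ZMPSTE24, the protease that finishes lamin A, fell in ACHN shKDM5C (-0.46 ± 0.0598, adjusted p = 3.34e-07) and RCE1 rose there (0.44 ± 0.0733, adjusted p = 1.28e-05, edgeR). FNTB, a subunit of farnesyltransferase, fell in the HK2 double knockdown (-0.69 ± 0.205, adjusted p = 0.00596, edgeR).

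Cell cycle genes were tallied in the same comparisons. Of MKI67, TOP2A, CCNA2, CDK1, MCM2 and PCNA, 1 was lower and 4 higher in ACHN shKDM5C (median log2 fold change 0.36), beside 27.7% and 28.9% of all genes. The tally was 1 and 4 in ACHN shYY1 (0.10), beside 24.5% and 24.2%, and 3 and 2 in the ACHN double knockdown (-0.32), beside 32.0% and 30.7%. HK2 had 2 and 1 with shYY1 (-0.064), beside 14.7% and 14.3%, and 4 and 1 in the double knockdown (-0.50), beside 24.3% and 25.5%. For shKDM5C in HK2 none of the 6 was called in edgeR's test, beside 0.656% and 0.668% of all genes, and 0 had an unadjusted p under 0.05. Without replicate 1, 1 was lower and 0 higher, beside 10.9% and 11.5%. LMNB1 and TMPO, which are abundant in dividing cells, fell in both double knockdowns. LMNB1 also fell in ACHN shKDM5C (-0.26), where 4 of the 6 cell cycle genes rose. TMPO rose in ACHN shYY1 (0.25), where 4 of the 6 rose as well. The part of cell cycle state in the changes of LMNB1 and TMPO was not tested.

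To show which genes had the pattern most like each lamin, log2 CPM was centred within each line and correlated over the 24 libraries with each of 9006 genes of at least 10 CPM on average in each line. The points share groups and libraries, and the values are descriptions. They include HK2 shKDM5C replicate 1, which had the lowest HK2 values of LMNA (173 CPM) and LMNB2 (136 CPM). Its part in these correlations was not tested. Closest to LMNB1 were CSDC2 (Pearson's r 0.905), SAFB (0.903), HOGA1 (0.898), ABCC1 (0.888) and PKP2 (0.873). Closest to LMNB2 were SNRPA (0.967), SLX9 (0.966), PKMYT1 (0.965), SART1 (0.964) and WDR5 (0.960). Closest to LMNA were FOXP4 (0.931), RELA (0.928), GRINA (0.924), GUK1 (0.918) and RGS19 (0.917). None of the 10 envelope genes was among the 5 closest to a lamin.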

How the data were processed

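Total RNA of ACHN and HK2 cells was sequenced as paired-end reads from an unstranded kit. For the deposited counts, the authors aligned reads with HISAT2 2.0.5 and counted pairs per gene with featureCounts (1.5.0-p3 per the labels, 2.0.1 per the file headers, no strand option) on Ensembl release 84, GRCh38. Pairs on more than 1 gene are left out by that tool's defaults. The values are raw counts, 1 library per table. Symbols came from a gene name table and matched 41209 of 60675 genes, and genes without one held 0.595% of the counts.

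Each comparison was fitted on all genes with edgeR 4.0.16 in R 4.3.3: TMM scaling, edgeR's filter on low counts, the quasi-likelihood test between the groups compared, and Benjamini-Hochberg adjustment. Standard errors were derived from the F statistic. Calls needed an adjusted p under 0.05. The 16 comparisons were 6 knockdowns against shCtrl, 4 of the double knockdown against a single one, 2 interactions, 1 of the lines and 3 differences between lines. The LMNA to LMNB1 ratio was compared by an exact permutation test. Alternatives were DESeq2 1.42.0, RLE size factors, library totals, no filter, at least 10 counts in every library of a group, unadjusted p, the replicate number as a block, all 4 groups of a line in the fit, and each library left out. Scripts were tested on simulated counts. Intervals were not computed, and depth limits cover counting error only.

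All 10 genes are named in every comparison, with KDM5C and YY1 as checks, at most 2 higher and 2 lower of 27 other envelope genes per comparison, 6 cell cycle genes as tallies, and the 5 genes most like each lamin. The genes and lists were chosen with earlier results of these data known. RefSeq promoter windows (GRCh38.p14) were used for sequence only.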

Additional observations from a re-analysis of the deposited data

Results flagged for a closer look

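Each result here was picked because the effect of a knockdown differed between ACHN and HK2 in a test of the difference itself (edgeR, adjusted p under 0.05). Values are ACHN minus HK2 on the log2 scale, with standard errors.

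For shYY1 the differences were -1.43 ± 0.0649 in LBR (adjusted p = 1.75e-16), which fell in all 3 ACHN libraries and overlapped shCtrl in HK2, -0.37 ± 0.0681 in EMD (6.92e-05), 0.41 ± 0.0571 in TMPO (1.53e-06), 0.39 ± 0.0512 in LMNA (4.76e-07), 0.28 ± 0.0728 in LEMD2 (0.00312) and 0.16 ± 0.0545 in SUN1 (0.0276).

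For the double knockdown they were -0.79 ± 0.0681 in LBR (adjusted p = 1.17e-10), -0.67 ± 0.0844 in EMD (1.47e-07), -0.60 ± 0.0669 in SUN1 (1.3e-08), 0.42 ± 0.0803 in LEMD3 (7.68e-05), 0.41 ± 0.0612 in LMNB1 (2.53e-06), 0.36 ± 0.0944 in BANF1 (0.00241), 0.33 ± 0.0634 in LMNA (8.18e-05) and 0.31 ± 0.0653 in TMPO (0.000276). LBR and EMD were lower in every ACHN library and higher in every HK2 library of the double knockdown than in their shCtrl.

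For shKDM5C the difference was 0.83 ± 0.198 in LMNA (adjusted p = 0.0185) and 0.64 without HK2 shKDM5C replicate 1, a call lost without any 1 of 5 other libraries. LMNA was higher in 3 of 3 ACHN libraries and lower in 3 of 3 HK2 libraries than in shCtrl. Depletion of KDM5C and YY1 was deeper in HK2, and the part of that in these differences was not tested.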

How the results depend on the processing

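Most values kept their direction and their side of the threshold. Of 160 log2 fold changes (10 genes in 16 comparisons), 159 kept both with the replicate number as a block, 157 with RLE size factors and with the stricter filter, 155 with DESeq2, 151 without a filter, 147 by unadjusted p and 142 with library totals. Of the 100 that could also be fitted with all 4 groups of a line, 80 kept both and 15 lost their call. Of 1260 values with 1 library left out, 1153 kept both. Same-numbered replicates did not deviate together in most pairs (correlations of deviations from -0.374 to 0.170), so the numbers were not taken as pairs, and the replicate block changed no call, with 10 of the 10 genes called in the ACHN double knockdown and 8 in HK2.

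The number of genes called moved by over 1.5 times in 7 comparisons, all with HK2 libraries. With all 4 groups in the fit it went from 5 to 0 for HK2 shYY1, from 8 to 4 for the HK2 double knockdown, from 8 to 3 for the double knockdown against shYY1 and from 1 to 5 against shKDM5C. By unadjusted p it went from 0 to 1 for HK2 shKDM5C, from 1 to 4 for the double knockdown against shKDM5C, from 1 to 4 for the HK2 interaction and from 1 to 3 for the shKDM5C difference between lines. DESeq2 gave 2 in place of 1 for the double knockdown against shKDM5C and for the shKDM5C difference, and no filter gave 3 for the HK2 interaction and 2 for the shKDM5C difference. With 1 library left out the counts ran from 0 to 4 for HK2 shKDM5C, 3 to 5 for HK2 shYY1, 0 to 9 for the double knockdown against shKDM5C, 1 to 7 for the HK2 interaction and 0 to 6 for the shKDM5C difference. In HK2 shYY1 the low count of 3 came without shCtrl replicate 1. Apart from the fits without HK2 shKDM5C replicate 1, the shares of all genes called under these settings are not given here. Whether these counts moved more than calls over all genes was thus not tested.

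Every value that changed sign was not called as reported, and 1 was called after the change: without HK2 shKDM5C replicate 1, the shKDM5C difference in LEMD2 turned to -0.25. With library totals the value went to -0.039 for LMNB2 in ACHN shKDM5C, -0.0055 for LBR in HK2 shKDM5C, -0.023 for LEMD3 in HK2 shKDM5C, -0.030 for LMNB2 in HK2 shYY1, -0.015 for LBR in HK2 shYY1, -0.026 for SUN1 in the HK2 double knockdown, 0.041 for LMNA in the ACHN double knockdown against shYY1, 0.026 for LEMD3 in the HK2 double knockdown against shKDM5C, 0.025 for LMNB2 in the HK2 interaction and 0.015 for SUN1 in the shKDM5C difference between lines. With DESeq2 the value went to -0.0036 for LMNA in the ACHN double knockdown against shKDM5C, -0.0079 for LEMD2 in the shKDM5C difference between lines and -0.012 for LEMD2 in the double-knockdown difference between lines. With RLE size factors the value went to -0.0037 for LMNA in the ACHN double knockdown against shKDM5C, -0.0085 for LEMD2 in the shKDM5C difference between lines and -0.012 for LEMD2 in the double-knockdown difference between lines. Without a filter the value went to -0.032 for LMNA in the ACHN double knockdown against shKDM5C, 0.025 for SUN1 in the shKDM5C difference between lines and -0.033 for LEMD2 in the double-knockdown difference between lines. With the stricter filter the value went to -0.0016 for LMNB2 in HK2 shYY1. With all 4 groups in the fit the value went to -0.0022 for LMNA in the ACHN double knockdown against shKDM5C. With the replicate block the value went to 0.043 for LMNB2 in the HK2 double knockdown against shKDM5C. With 1 library left out the values that changed sign ran from -0.011 to 0.034 for LMNB2 in ACHN shKDM5C, -0.13 to 0.061 for LMNB1 in HK2 shKDM5C, -0.044 to 0.18 for LBR in HK2 shKDM5C, -0.39 to 0.021 for LEMD2 in HK2 shKDM5C, -0.033 to 0.038 for LMNB2 in HK2 shYY1, -0.017 to 0.072 for LBR in HK2 shYY1, -0.012 to 0.057 for SUN1 in the HK2 double knockdown and -0.038 to 0.031 for LMNA in the ACHN double knockdown against shKDM5C. The others ran from -0.031 to 0.028 for LMNA in the ACHN double knockdown against shYY1, -0.29 to 0.13 for LMNB2 in the HK2 double knockdown against shKDM5C, -0.070 to 0.033 for LEMD3 in the HK2 double knockdown against shKDM5C, -0.29 to 0.13 for LMNB2 in the HK2 interaction, -0.076 to 0.28 for EMD in the HK2 interaction, -0.25 to 0.18 for LEMD2 in the shKDM5C difference between lines, -0.11 to 0.099 for SUN1 in the shKDM5C difference between lines, -0.019 to 0.078 for LEMD3 in the shYY1 difference between lines and -0.049 to 0.054 for LEMD2 in the double-knockdown difference between lines. The cause of these changes was not tested. With 3 libraries a group, changes of the size of the smallest called here (about 0.10) are near what single libraries can move. Larger called changes were also lost without 1 library. Among them were EMD in the HK2 double knockdown (0.19) and 2 with the HK2 shKDM5C group. These were TMPO in the double knockdown against shKDM5C (-1.14) and LMNA in the shKDM5C difference between lines (0.83).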
